A study of Mus musculus with 8 samples.

Results

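A group of 10 genes that write, maintain, oxidise or excise methylated cytosine, or make the cosubstrate of its oxidation, was followed in mouse multipotent progenitors (MPPs). They were taken by gene symbol and were the DNA methyltransferase genes Dnmt1, Dnmt3a and Dnmt3b, the maintenance cofactor gene Uhrf1, the TET dioxygenase genes Tet1, Tet2 and Tet3, the thymine DNA glycosylase gene Tdg and the isocitrate dehydrogenase genes Idh1 and Idh2. They made up 10 of the 37980 gene rows, and all 10 passed the filter on low values that left 11451 genes to test. RNA had been measured in 4 NA and 4 WT libraries, each made from 1000 MPPs of C57BL/6 bone marrow that were sorted as lineage-negative, CD48-, c-kit+, Sca1+, CD135+ and CD150-. NA mice were NA LSL/+; Vav-Cre animals, in which Vav-Cre switches on the NUP98-HOXA10hd fusion in blood cells from the Rosa26 locus, and WT mice were wild-type C57BL/6 animals. The labels give no age for either group. The comparison asks how the fusion changes RNA levels in MPPs. The sources used here do not say whether a WT animal carried Cre, or whether the 4 libraries of a group came from separate mice, so p-values measure the spread between these libraries, which may be technical.

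Each library held between 3876905 and 4916987 estimated reads. Library 4 of each group resembled a weighted sum of libraries 1 to 3 of that group: the excess variance around the sum was 0.0035 for WT4, where independent libraries would give at least 0.0336, and 0.0102 for NA4, where they would give at least 0.0405. Results are therefore given with and without the fourth libraries. Xist was at most 2.80 normalised counts in the NA libraries and between 868.6 and 1285 in the WT libraries, and the Y-linked Eif2s3y was between 516.2 and 666.5 in NA and at most 0.888 in WT, so donor sex and genotype cannot be told apart in any result below. Hoxa10, part of which is in the fusion, was between 298.0 and 370.6 normalised counts in NA and between 129.6 and 149.1 in WT. Kit, Flt3 and Cd34 were above 1000 normalised counts in every library, and Slamf1, which encodes CD150, was at most 47.9. Ly6a, which encodes Sca1, and Cd48 were lower in NA (limma adjusted p = 0.0257 and 0.00711). Of the genes tested, 1152 were higher and 901 lower in NA, and with total-count scaling the split was 925 higher and 1314 lower.

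DNA methylation in mammals sits mostly on cytosines that precede guanine (CpG). DNMT3A and DNMT3B place new methyl groups, whereas DNMT1, guided by UHRF1 to freshly copied DNA, restores the pattern after replication. TET enzymes oxidise 5-methylcytosine with 2-oxoglutarate, iron and oxygen, and TDG removes the most oxidised forms so that base excision repair can put back an unmodified cytosine. IDH1 in the cytosol and IDH2 in mitochondria make 2-oxoglutarate. Loss of DNMT3A or TET2 is a frequent early event in human clonal haematopoiesis, and both restrain the self-renewal of mouse blood stem cells.

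Of the 10 genes, 4 were higher and 1 was lower in NA MPPs (limma, adjusted p below 0.05), beside 10.1% of all tested genes higher and 7.87% lower. Tet2, Tet1, Idh1 and Dnmt3a were higher and Idh2 was lower. The median log2 fold change of the 10 was 0.42, beside -0.011 for all tested genes. Without the fourth libraries 2 of the 10, Tet1 and Tet2, were higher and none was lower by limma (4 higher and 1 lower at an unadjusted p under 0.05), beside 3.26% higher and 1.25% lower of all tested genes. In either direction, 17.9% of all tested genes were called with 8 libraries and 4.52% with 6. For 5 of the 10 genes, the 4 higher ones and Uhrf1, the 4 NA values did not overlap the 4 WT values, and 22.0% of all tested genes did not overlap in either direction.

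**Figure D1:**
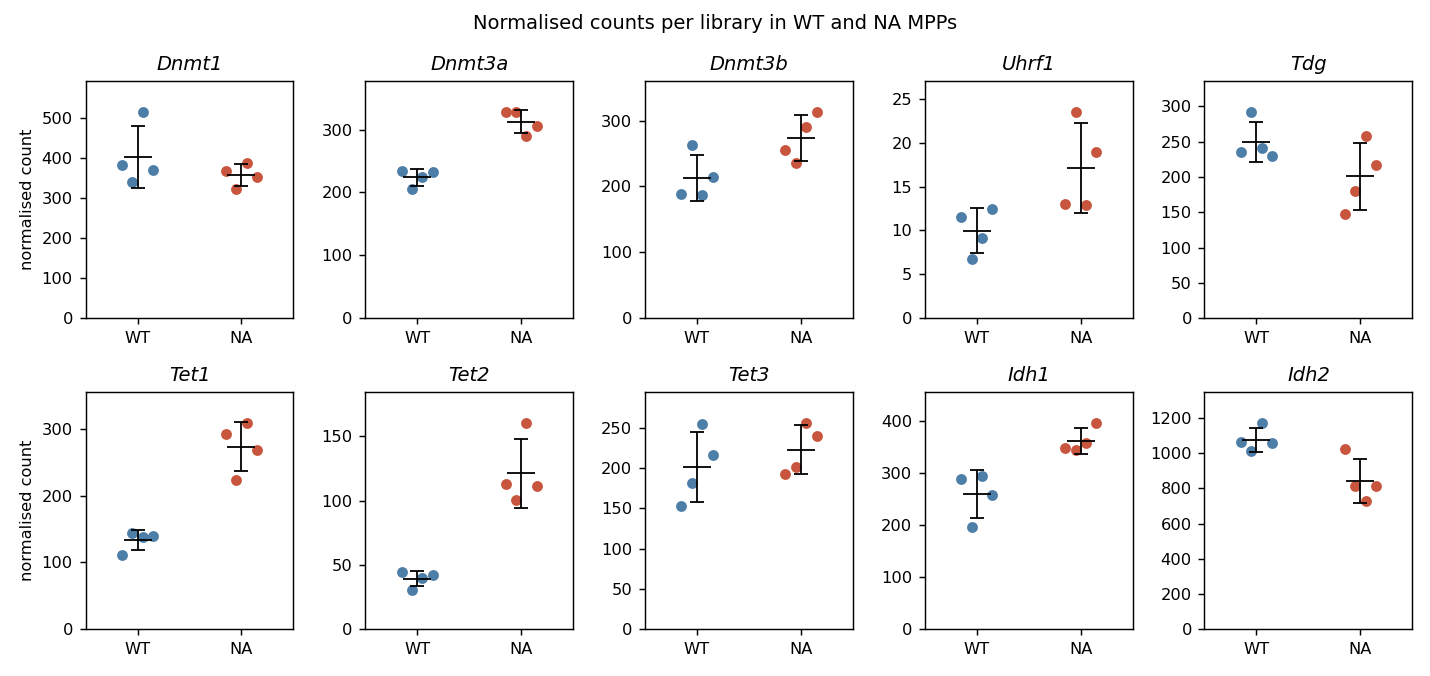
Normalised counts of the 10 genes in each library (points) with the group mean and SD (n = 4), NA beside WT. Tet1 and Tet2 stand apart between the groups, Dnmt1 and Tet3 overlap, and the Idh2 value of 1023 in NA1 lies inside the WT range of 1012 to 1175.

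**Figure D2:**
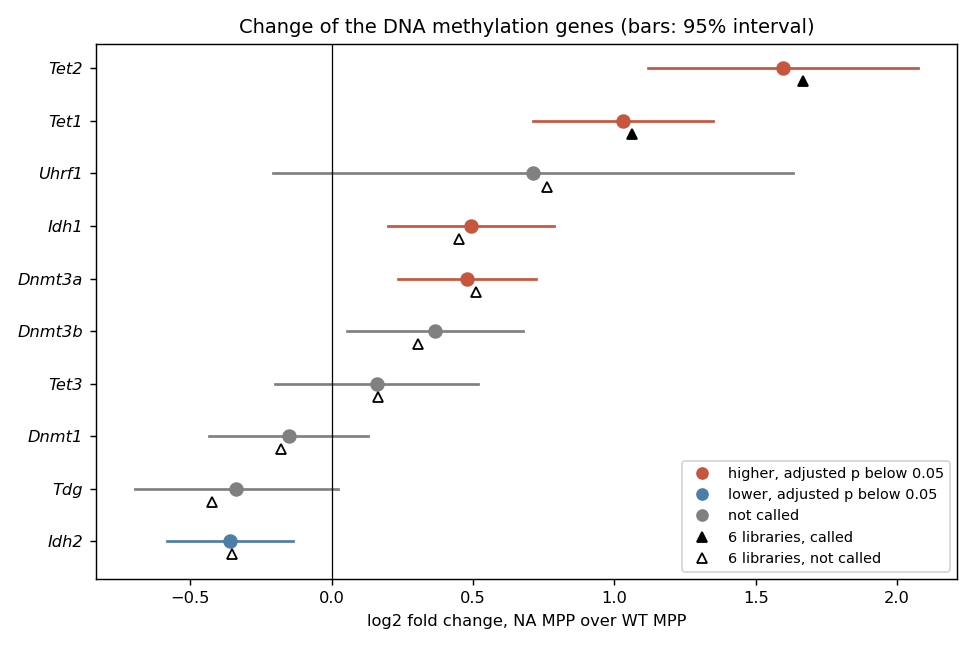
The log2 fold change of each of the 10 genes, NA over WT, on the log2(normalised count + 1) scale, with its 95% confidence interval from limma and, as triangles, the value without the fourth libraries. The values run from -0.36 for Idh2 to 1.60 for Tet2.

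Among the 10 genes, Tet2 and Tet1 had the largest called changes. Because these enzymes act on methylated CpG, the CpG content of the Tet promoters is shown, although promoter methylation was not measured and the start site the reads came from is not known. Each printed window is the longest stretch free of annotated exons within 250 bases upstream of the RefSeq start (GRCm38.p6). The printed windows are on the minus strand and written 5′ to 3′ of the gene, with each CpG in capitals. They are chr10:62887325-62887412 for Tet1, chr3:133544391-133544640 for Tet2 and chr6:83441679-83441754 for Tet3.
Tet1: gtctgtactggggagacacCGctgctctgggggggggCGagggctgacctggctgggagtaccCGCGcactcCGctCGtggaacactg
Tet2: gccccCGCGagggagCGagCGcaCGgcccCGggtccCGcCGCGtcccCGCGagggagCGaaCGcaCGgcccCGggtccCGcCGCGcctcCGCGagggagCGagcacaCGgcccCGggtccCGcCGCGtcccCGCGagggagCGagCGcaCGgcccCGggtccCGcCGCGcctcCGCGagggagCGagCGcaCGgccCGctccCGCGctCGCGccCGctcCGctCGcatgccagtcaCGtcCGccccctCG
Tet3: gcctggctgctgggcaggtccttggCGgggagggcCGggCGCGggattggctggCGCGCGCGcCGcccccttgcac
Over the whole 250 bases, the Tet2 window held 51 CpG, more than 99.9% of the 32851 RefSeq promoter windows of that length, whose median was 6. The Tet1 window held 15 CpG and the Tet3 window 17, more than 72.7% and 76.5% of windows. Neither TTTAT, a core of Hox sites that 37.3% of all windows hold, nor TGANTCA, the AP-1 site that 6.7% hold, was present in any of the 3 windows of 250 bases on either strand. GCGNGGGCG, the Egr1 site, was in the Tet1 window of 250 bases and in 4.7% of all windows. It was not within the 88 bases printed for Tet1, and its place in the rest of the 250 bases is not given here. Of those 250 bases, 100 are annotated exon. These letters are a description of the windows only.

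Tet2, which lies on mm10 chr3:133463679-133545139 (minus strand), was 113.0, 100.6, 160.7 and 111.0 normalised counts in NA1 to NA4 and 44.4, 30.6, 39.8 and 41.7 in WT1 to WT4. Every NA value was more than the highest WT value. The means were 121.3 ± 26.8 (SD, n = 4) and 39.1 ± 6.00, and the fold change was 3.03 (log2 1.60, 95% interval 1.12 to 2.08, SE 0.22, limma adjusted p = 0.000298). It was past the threshold under all 20 alternatives, between 1.46 and 1.68 on the log2 scale, and without the fourth libraries it was 1.67 (adjusted p = 0.00796). An antisense gene, Gm42567, shares 43 exon bases with Tet2, and the use of strand in counting is not given in the sources used here.

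Tet1, on chr10:62804570-62908996 (minus strand), was 292.2, 223.7, 309.3 and 268.1 normalised counts in the NA libraries and 111.0, 143.8, 137.8 and 139.4 in the WT libraries. The groups did not overlap. The mean rose from 133.0 ± 14.9 in WT to 273.3 ± 37.1 in NA, a 2.04-fold change (log2 1.03, interval 0.71 to 1.35, SE 0.15, limma adjusted p = 0.000383), and the call held under all 20 alternatives, with 1.06 and an adjusted p of 0.00976 without the fourth libraries. Tet3, on chr6:83362373-83459084 (minus strand), was 192.3, 202.1, 256.7 and 239.8 in NA and 153.6, 181.2, 255.0 and 216.6 in WT. These values overlapped, and the log2 difference of 0.16 had an interval of -0.20 to 0.52 (limma adjusted p = 0.545).

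Within the TET family, the share of each gene was computed per kilobase of exon, as its per-length level over the sum of the 3 genes. Tet3 made up 52.1% ± 4.1 of that sum in WT and 35.0% ± 3.0 in NA. Tet1 made up 37.6% ± 3.6 and 46.3% ± 3.1, and Tet2 10.3% ± 2.5 and 18.7% ± 1.7. In WT the order per kilobase was Tet3, Tet1 and Tet2, at 12.1, 8.60 and 2.32 normalised counts per kilobase, and in NA it was Tet1, Tet3 and Tet2, at 17.7, 13.3 and 7.19. The order in NA rests on the exon length used: per base of the longest transcript the mean shares in NA were 38.9% for Tet3, 36.2% for Tet1 and 24.9% for Tet2, the same order as in WT, at 57.3%, 29.1% and 13.6%. None of the 3 shares overlapped between the groups. The shares were not tested, and neither was the difference between the changes of Tet1, Tet2 and Tet3.

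**Figure D3:**
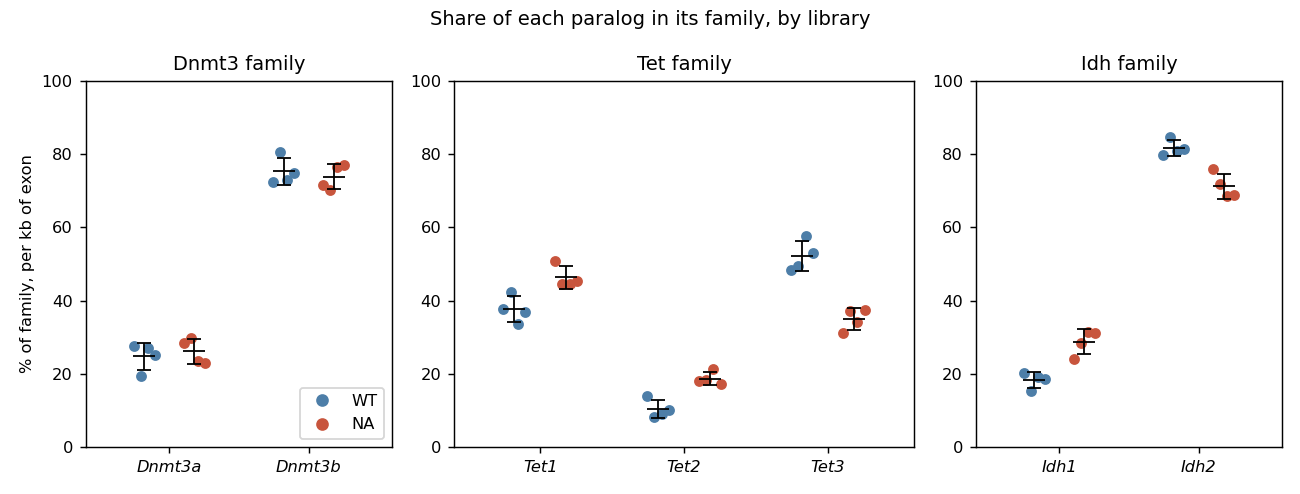
Share of each gene in the summed per-kilobase level of its family (percent), by library, for the Dnmt3, Tet and Idh families. The Tet3 share lies between 48.4% and 57.5% in WT and between 31.0% and 37.5% in NA.

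Among the methyltransferases, Dnmt3a was higher in NA and the others did not pass the test. Dnmt3a, on chr12:3806007-3914443 (plus strand), was 327.7, 328.1, 289.9 and 305.9 normalised counts in NA and 234.4, 205.0, 224.3 and 232.6 in WT. The lowest NA value was above the highest WT value. The change was 1.39-fold (log2 0.48, interval 0.24 to 0.72, SE 0.11, limma adjusted p = 0.0106). It passed under 19 of 20 alternatives and did not pass without the fourth libraries (log2 0.51, adjusted p = 0.0955). Dnmt3aos, an antisense gene, shares 133 exon bases with it.

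Dnmt3b, on chr2:153649450-153687730 (plus strand), was 254.8, 235.9, 290.8 and 313.0 in NA and 188.2, 262.7, 186.7 and 214.0 in WT. The WT2 value was above 2 of the NA values. The log2 difference was 0.37 (interval 0.05 to 0.68, limma adjusted p = 0.0968), and it passed under 2 of 20 alternatives, without WT2 (0.47, adjusted p = 0.0407) and with a trend on GC content removed (0.45, adjusted p = 0.0462). Without the fourth libraries it was 0.31 (adjusted p = 0.407). Dnmt3c, whose transcripts share 9.81% of Dnmt3b 50-base stretches, was listed at 0 in every library. As a share of the per-kilobase sum of the pair, Dnmt3a was 26.2% ± 3.4 in NA and 24.7% ± 3.8 in WT, and these overlapped.

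Dnmt1, on chr9:20907209-20959888 (minus strand), was 367.8, 323.4, 388.7 and 354.3 in NA and 383.5, 340.9, 515.8 and 371.1 in WT. Its log2 difference was -0.15 (interval -0.43 to 0.13, limma adjusted p = 0.453), with overlapping groups. Uhrf1, on chr17:56303321-56323486 (plus strand), was low: 13.1, 23.5, 12.9 and 18.9 in NA and 11.5, 6.79, 9.11 and 12.4 in WT, or 6 to 25 estimated reads a library. The lowest NA value of 12.9 was just above the highest WT value of 12.4, and the log2 difference of 0.71 had an interval of -0.21 to 1.63 (limma adjusted p = 0.269). Of Uhrf1 50-base stretches, 15.39% also occur in other genes, mostly in the pseudogene Gm5648, which was at 0 in every library. Per kilobase of exon, Dnmt1 stood at 48.6 ± 3.7 in NA and 54.6 ± 10.5 in WT, and Uhrf1 at 4.01 ± 1.2 and 2.34 ± 0.60.

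Tdg, the glycosylase, on chr10:82629828-82650799 (plus strand), was 147.5, 180.5, 258.5 and 217.3 in NA and 236.1, 292.2, 241.4 and 229.9 in WT. NA3 was inside the WT range and the other 3 NA values were below it. The log2 difference was -0.34 (interval -0.70 to 0.02, limma adjusted p = 0.179). Of its 50-base stretches, 35.49% also occur in other genes, led by Tdg-ps, at 2.28 to 14.0 normalised counts, and 367 exon bases overlap the neighbouring Glt8d2, so its level is uncertain by the reads these genes could take or give.

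The isocitrate dehydrogenases moved in opposite directions. Idh1, on chr1:65158616-65186500 (minus strand), was 347.3, 344.0, 358.2 and 396.8 in NA and 289.4, 195.9, 294.9 and 258.4 in WT, with no overlap. The change was 1.41-fold (log2 0.49, interval 0.20 to 0.79, SE 0.14, limma adjusted p = 0.0244). It passed under 12 of 20 alternatives, and not without the fourth libraries (0.45, adjusted p = 0.186) or without NA4 (adjusted p = 0.0874), WT2 (0.0537) or WT4 (0.0627). With a GC trend removed it was 0.37 (limma adjusted p = 0.0650) and did not pass. Nor did it pass with total-count scaling (adjusted p = 0.0522), no low-value filter (0.0536) or no variance trend (0.0643).

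Idh2, on chr7:80094846-80115392 (minus strand), was 1023, 815.0, 728.5 and 814.9 in NA and 1063, 1012, 1175 and 1061 in WT. NA1 lay inside the WT range and the other 3 NA values below it. The log2 change was -0.36 (interval -0.58 to -0.14, SE 0.10, limma adjusted p = 0.0292). It passed under 9 of 20 alternatives, was -0.23 with a GC trend removed (adjusted p = 0.153) and -0.35 without the fourth libraries (adjusted p = 0.165), and did not pass without NA2 (adjusted p = 0.0680), NA3 (0.0626), NA4 (0.0806), WT1 (0.0538), WT3 (0.0770) or WT4 (0.0709). Per kilobase of exon, Idh2 was the most abundant of the 10 in both groups, at 326.7 ± 48.4 in NA and 416.4 ± 26.6 in WT, and Idh1 the next, at 130.5 ± 8.8 and 93.7 ± 16.4. Idh1 made up 28.8% ± 3.5 of the Idh sum in NA and 18.3% ± 2.1 in WT, with no overlap.

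In these bulk libraries fewer cells of a type and less RNA per cell cannot be told apart. Summed erythroid markers ran from 33.1 to 63.0 normalised counts in NA and from 144.6 to 286.7 in WT, where Hba-a1, Hba-a2, Alas2 and Slc4a1 were at or under 3 reads in every library and the 1 tested marker of the 8 was lower. Granulocyte markers summed to between 1390 and 1709 in NA and between 1754 and 2638 in WT, with 2 of 4 tested markers lower of a list of 9 and Elane and Ltf at or under 3 reads. Macrophage and monocyte markers summed to between 18.5 and 70.9 in NA and between 95.6 and 112.1 in WT, with none of 2 tested of 7 passing limma's adjusted threshold and 2 lower at an unadjusted p under 0.05. T cell markers summed to between 113.4 and 200.4 in NA and between 183.3 and 302.4 in WT, with Cd3e, Cd3d, Cd3g, Cd8a and Cd2 at or under 3 reads and 1 of 2 tested of 7 lower. The sums of B cell, megakaryocyte, mast cell and stroma markers overlapped between the groups, and none of their 9 tested genes passed (1 higher and 1 lower unadjusted). The part of other cells in the results was not tested. Summed G2 and M phase genes ran from 2066 to 2493 in NA and from 1265 to 1818 in WT, and S phase genes from 8826 to 8976 and from 8437 to 9395, and their part was not tested either.

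Across the 8 libraries, several of the 10 genes varied together, as log2(normalised count + 1). Pearson r was 0.935 between Tet1 and Tet2, 0.914 between Dnmt3a and Tet2, 0.869 between Idh1 and Tet2, and -0.807 between Idh2 and Tet2. These values contain the difference between the groups and the resemblance of library 4 to the others, so they are given as a description. Among the 9000 genes that averaged 50 normalised counts or more over the 8 libraries, those most like Tet2 were Pdha1 (r = 0.99), a subunit of pyruvate dehydrogenase, Nfkbia (0.984), the inhibitor of NF-kappaB, and Runx3 (0.982), a transcription factor. Those most like Dnmt3a were Atp2b1 (0.989), a plasma membrane calcium pump, Ube2g1 (0.988), a ubiquitin-conjugating enzyme, and 5430403G16Rik (0.987). Those most like Uhrf1 were Itga6 (0.984), an integrin, Hsp90aa1 (0.971), a chaperone, and Gclc (0.968), of glutathione synthesis. Uhrf1 rested on 6 to 25 estimated reads a library, so counting error is a large part of its pattern. All these r are the highest of 9000 genes over 8 libraries, and high values can arise from that choice alone.

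The partners of these enzymes were followed in lists, beside 10.1% of all tested genes higher and 7.87% lower. Of 17 tested partners, regulators and guides of the methyltransferases (20 listed), 1 was higher and none lower by limma (1 and 3 at an unadjusted p under 0.05), with a median log2 change of -0.064. That gene was Kdm1a, a histone demethylase that also acts on DNMT1, at 760.8 to 844.8 normalised counts in NA and 315.4 to 607.0 in WT (log2 0.84, limma adjusted p = 0.00209; 0.84 without the fourth libraries, adjusted p = 0.0262). Of 9 tested TET partners and regulators (14 listed), none was higher and 1 was lower by limma (2 and 2 at an unadjusted p under 0.05). It was Ddb1, a subunit of an E3 ligase, at 407.5 to 510.6 in NA and 579.7 to 754.2 in WT (log2 -0.55, adjusted p = 0.00373; 0.0309 without the fourth libraries). Their median was -0.060.

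Of 10 tested genes listed as readers of methylated CpG or as their relatives, 3 were higher and 1 was lower, with a median of -0.16. Mbd3, Mbd5 and Mbd6 are listed by family, and not every listed protein is known to bind methylated CpG. Zbtb33, which encodes the reader Kaiso and is X-linked, was 89.3 to 141.3 in NA and 24.9 to 42.6 in WT (log2 1.57, limma adjusted p = 0.000802; 0.0177 without the fourth libraries). Zbtb4, a related reader, was 176.7 to 249.2 in NA and 88.8 to 126.8 in WT (log2 0.93, adjusted p = 0.00184; 0.0322 without the fourth libraries). Mbd6 was 328.6 to 373.9 in NA and 401.3 to 507.3 in WT (log2 -0.36, adjusted p = 0.0353), and its call was lost without the fourth libraries (adjusted p = 0.218). The third higher gene, Mbd2, was named after its value was seen, at 566.0 to 698.0 in NA and 408.8 to 485.6 in WT (log2 0.48, adjusted p = 0.00592; 0.0687 without the fourth libraries).

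Base excision repair genes act after Tdg or are glycosylases parallel to it. Of 17 tested (18 listed), 1 was higher and 3 were lower, with a median of -0.30. Of all tested genes, 10.1% were higher and 7.87% lower. Neil3, a glycosylase, was 43.2 to 82.7 in NA and 3.40 to 31.9 in WT (log2 1.66, limma adjusted p = 0.0457). The WT2 value was 3.40 and the other WT values were 27.5 to 31.9. With 1 library left out, the log2 change ran from 0.96 to 1.93. Neil3 was past the threshold under 7 of 19 alternatives, with an adjusted p of 0.166 without the fourth libraries. Apex1, the main abasic-site endonuclease, was 13.0 to 25.9 in NA and 36.2 to 47.1 in WT (log2 -1.13, adjusted p = 0.0250; 0.218 without the fourth libraries). Of the 1422 exon bases of Apex1, 877 overlap Pip4p1 on the opposite strand, so its level is uncertain by the reads these genes could take or give. Smug1, a uracil and hydroxymethyluracil glycosylase, was 38.3 to 84.6 in NA and 103.1 to 150.9 in WT (log2 -0.82, adjusted p = 0.0371; 0.122 without the fourth libraries). The remaining lower gene, Parp1, named after its value was seen, had a log2 change of -0.51 (adjusted p = 0.00957; 0.102 without the fourth libraries).

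Supply of the methyl donor and of the TET cosubstrates was followed in the same way, beside 10.1% of all tested genes higher and 7.87% lower. Of 18 tested genes of one-carbon and S-adenosylmethionine supply, 1 was lower and none higher by limma (2 and 2 at an unadjusted p under 0.05), with a median of -0.088. It was Slc19a1, the reduced folate carrier, at 164.5 to 227.8 in NA and 240.1 to 296.5 in WT (log2 -0.48, limma adjusted p = 0.0264, and 0.151 without the fourth libraries). Of 18 tested genes of 2-oxoglutarate, succinate and fumarate metabolism (19 listed), 1 was lower and none higher by limma (4 and 1 at an unadjusted p under 0.05), with a median of -0.057. It was the X-linked Idh3g, a subunit of the NAD-dependent isocitrate dehydrogenase, at 1103 to 1159 in NA and 1386 to 1471 in WT (log2 -0.33, adjusted p = 0.00719, and 0.0800 without the fourth libraries). None of 9 tested ascorbate and iron genes (10 listed) was called by limma, and 2 were lower at an unadjusted p under 0.05 (median -0.015).

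Some germline genes are kept silent in body cells by promoter methylation, which was not measured here. Of 16 listed, 12 were at 0 in every library and 2 were tested, both of them present in every WT library. Ddx4, an RNA helicase of germ cells, was 309.9, 381.6, 336.1 and 408.7 normalised counts in NA and 137.6, 148.4, 60.3 and 127.0 in WT. All NA values lay above all WT values (log2 1.66, interval 1.17 to 2.16, limma adjusted p = 0.000304, past the threshold under all 20 alternatives, with 0.00562 without the fourth libraries). Brdt, a testis bromodomain gene, was 63.9 to 84.9 in NA and 39.8 to 88.3 in WT, with a log2 difference of 0.20 (interval -0.33 to 0.74, adjusted p = 0.606).

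Among cell cycle genes, 7 of 22 tested G2 and M phase genes were higher and none lower by limma (10 and 0 at an unadjusted p under 0.05, median 0.75). For S phase genes, 3 of 32 were higher and 1 lower (median 0.036). Of all tested genes, 10.1% were higher and 7.87% lower. RNA levels do not measure cycling. The paper reported cell cycle terms among the upregulated genes of NA MPPs and enrichment of a cell cycle gene set. It also measured selected genes of that set by real-time PCR. Its cell cycle assay found NA MPPs more quiescent than control MPPs. Aurkb, a mitotic kinase, had a log2 change of 1.73 (limma adjusted p = 0.00451, and 0.0587 without the fourth libraries). Nusap1, a spindle protein, had one of 1.99 (adjusted p = 0.0298, and 0.116 without them), with overlapping groups. Rrm2, the regulated subunit of ribonucleotide reductase, was 29.9 to 42.5 in NA and 7.93 to 11.4 in WT (log2 1.65, adjusted p = 0.00566, and 0.0778 without the fourth libraries). Rfc4, of the clamp loader, changed by 0.97 (adjusted p = 0.00326, and 0.0519 without the fourth libraries) and Mcm7, of the replicative helicase, by -0.62 (adjusted p = 0.00143, and 0.0432), whereas Uhrf1 and Dnmt1, which act at replication, did not pass. Exons of Zbtb33, Ddb1, Apex1, Parp1, Mcm7, Rfc4 and Nusap1 overlap those of neighbouring genes, so their counts are uncertain to that extent. The overlap ran from 7 bases in Parp1 to 877 in Apex1.

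**Figure D4:**
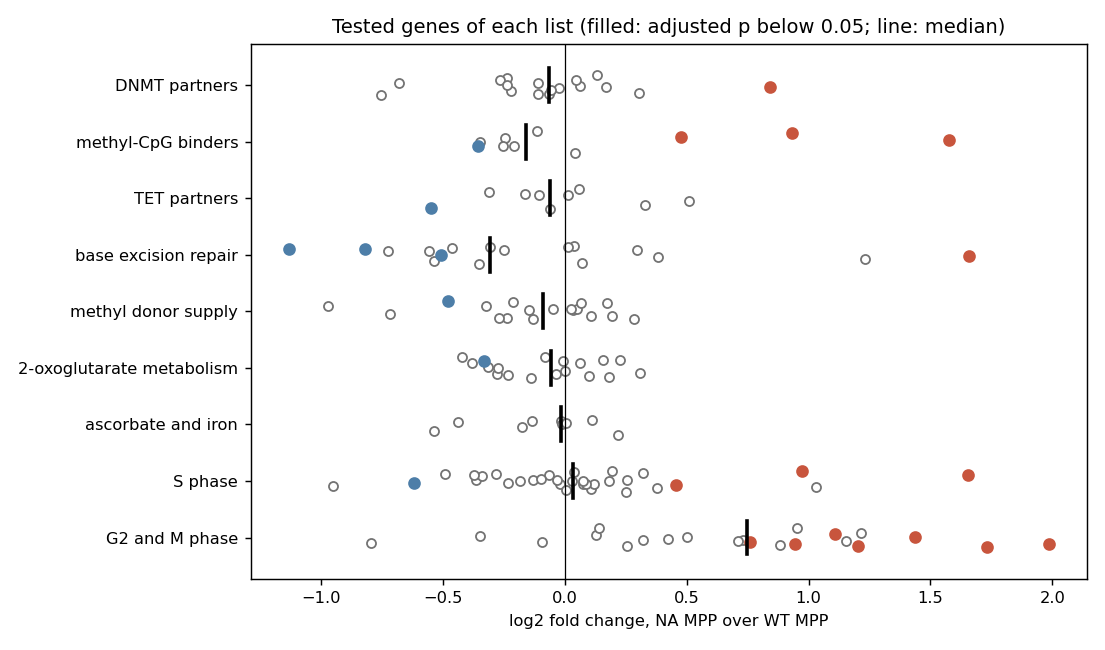
Log2 fold changes of the tested genes of each list other than the germline genes (points, filled where adjusted p is below 0.05) with the list median, on the log2(normalised count + 1) scale. Of the lists shown, the G2 and M phase list has the median farthest above 0, at 0.75, and base excision repair the one farthest below, at -0.30.

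**Figure D5:**
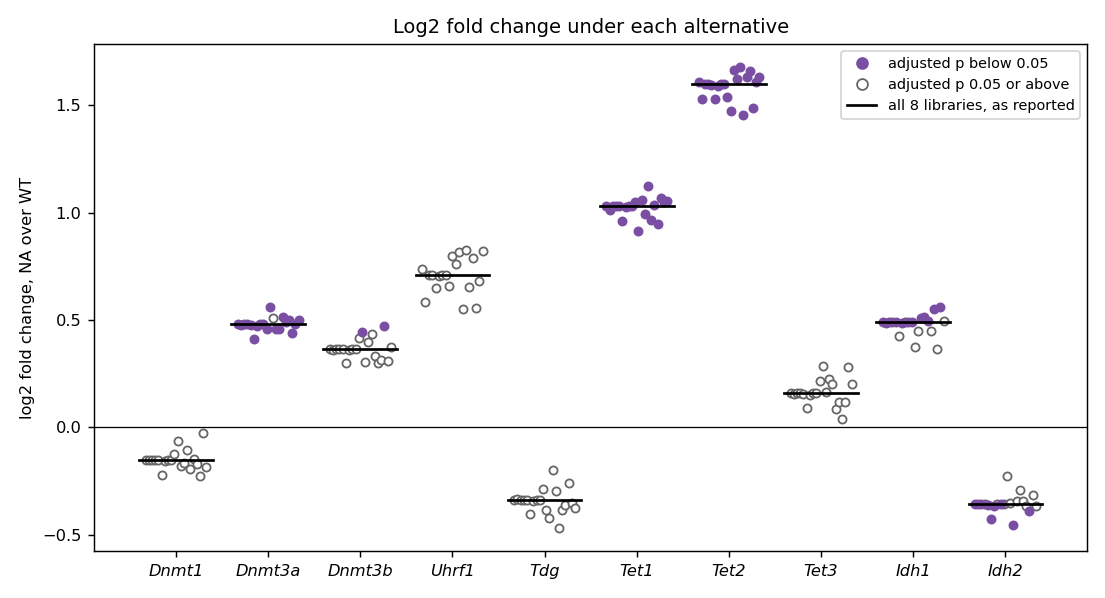
Log2 fold change of each of the 10 genes, NA over WT, with all 8 libraries (line) and under each alternative (points), with filled points for an adjusted p below 0.05. Tet1 and Tet2 are filled throughout, Idh1 in 12 of 20 alternatives and Idh2 in 9.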

How the data were processed

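RNA was measured in 4 NA and 4 WT MPP libraries, grouped by sample title. The submitters' processing notes name bcl2fastq, RSEM, DESeq2 and mm10, with versions and annotation not given in the sources used here. The deposited values are a normalised signal, which by their steps are RSEM counts that the authors divided by a size factor per library, although the table is named raw counts. Dividing by the commonest low value in each library (0.888 to 1.18) made 98.3% to 98.7% of values above 0.5 whole (tolerance 0.02 read, wider for high values) and gave the estimated reads. Floors of 3 reads cover counting error only, because cDNA was amplified and no molecular identifiers are described. Coordinates and symbols came from GENCODE M21 (32916 rows named, holding all but 0.779% of the summed values). Promoters came from RefSeq GRCm38.p6.

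Values were tested as log2(normalised count + 1) with limma 3.58.1 in R 4.3.3, with a variance trend and no covariates, on genes with at least 10 normalised counts in 4 of the 8 libraries. Adjusted p-values are Benjamini-Hochberg over 11451 genes, threshold 0.05. The procedure was also run on simulated libraries. These were drawn independently, so that run cannot check it under the resemblance of library 4 to the others. Fold changes understate the change of low genes. The 10 genes were all named, with the highest and lowest called gene of each pathway list (and the next where at least 4 were called), the detected germline genes, fusion and sex-linked genes, and the 3 genes most like Dnmt3a, Tet2 and Uhrf1. The members and lists were chosen with earlier results of these data known. The 20 alternatives varied pseudocount, filter, scaling, variance trend, covariates and libraries. A gene of the planned erythroid marker list is not reported here and was left out of its sum.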

Additional observations from a re-analysis of the deposited data

Results flagged for a closer look

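Among 32 groups of 4 values examined, 2 had 1 value far from the other 3 by Dixon's ratio, where chance gives about 1.6 such groups (5%). The share of Tet1 in the TET family was 50.9% in NA1 and between 44.5% and 45.3% in the other NA libraries. NA4 had 3887855 estimated reads, and the other NA libraries had between 4909391 and 4916987. WT2 and WT3 were near NA4, at 3960939 and 3876905 estimated reads. All 4 NA values of the Tet1 share remain above the highest WT share of 42.4%.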

How the results depend on the processing

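Over the 10 genes and their alternatives, 199 values were recomputed: 177 kept direction and side of the threshold, 20 fell short of it, 2 passed it and 0 reversed. The number of genes called was 2053, 519 without both number 4 libraries, and between 1130 (without NA4) and 2188 when 1 library was left out, with 1271 without WT4. The 4 higher members became 2 without both number 4 libraries. The 1 lower member became 0 with no filter, no variance trend, a depth covariate, a GC trend removed or both number 4 libraries left out, and ran from 0 to 1 when 1 library was left out. Over the pathway lists, 16 higher genes became 5 without both number 4 libraries, and 8 lower genes became 16 with total-count scaling, 2 without both number 4 libraries and between 4 and 16 when 1 library was left out. The cause was not tested. Total-count scaling moved the median of all genes by -0.068. The Tet2 share difference of 8.41 percentage points was 11.4 with longest-transcript lengths, which also put Tet3 before Tet1 in NA. Brdt, not called, ran from -0.0146 (without WT3, limma adjusted p = 0.973) to 0.3617 when 1 library was left out. With a replicate block 2004 genes were called, Smug1 was not (adjusted p = 0.0616), lower TET partners went from 1 to 2 and lower 2-oxoglutarate genes from 1 to 3, and no other named gene changed its call. Same-numbered libraries correlated at 0.087, 0.027, 0.013 and 0.158, and 2 of the 4 NA libraries were not most like their own number, so the numbers were not taken to pair them. The planned count tests, edgeR and DESeq2, were not run, because the values are not counts. Uhrf1 rested on 6 to 25 estimated reads a library, and whether depth set its result was not tested.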
